A study of Homo sapiens with 30 samples.

Results

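The clustered replication-dependent histone genes are the genes that supply the bulk of histone protein during DNA replication. They were taken as the GRCh38 RefSeq genes on chromosomes 1 and 6 whose symbol is H2AC, H2BC, H3C or H4C followed by a number, or H1-1 to H1-6. This rule gave 68 of 59792 annotated genes, namely 6 genes of the linker histone H1, 17 of H2A, 18 of H2B, 13 of H3 and 14 of H4. Peaks that overlapped such a gene or lay within 1000 bp of it were 39 of the 21268 H3K4me3 consensus peaks and 43 of the 63580 H3K27ac consensus peaks. All of these peaks passed the filter on low counts, which left 20402 and 54037 peaks of the marks. Many genes lie so close together that 1 peak touches several of them, so a peak is named here by all member genes it touches, which means that it overlaps them or lies within 1000 bp of them.

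The chromatin came from OCI-Ly1, an established human line of diffuse large B-cell lymphoma. Cells received JIB-04, which inhibits demethylases of the Jumonji family, at 150 nM or 500 nM, or 0.01% DMSO as the vehicle, and the length of treatment is not given in the sources used here. Chromatin immunoprecipitation with sequencing measured H3K4me3, the trimethylation of histone H3 found at active promoters, and H3K27ac, an acetylation of H3 found at active promoters and enhancers. Of the 30 libraries of the series, 12 are used here, 2 for each mark in each of the 3 groups, and the other 18 were not analysed here. All groups are the same cell line, and nothing in the labels says that the replicates were separate cultures, so p-values measure the spread between these libraries, which may be technical.

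Nucleosomes are built from the core histones H2A, H2B, H3 and H4, and H1 binds the DNA between them. The clustered genes are short and intronless as a rule, are transcribed mainly in S phase, and their mRNAs end in a stem-loop that SLBP binds instead of a poly(A) tail. The coactivator NPAT, a substrate of cyclin E and CDK2, gathers at these genes in nuclear bodies and drives their transcription. Several Jumonji enzymes remove methyl groups from H3K4, H3K9 or other histone lysines, and growing cells of any type use these genes.

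The members fall into 5 groups when genes less than 300 kb apart are joined. The large cluster at chr6:25726063-26285534 holds 34 genes, including 5 of the 6 H1 genes. Smaller clusters on chromosome 6 lie at chr6:27132316-27147562 with 5 genes and at chr6:27807479-27893891 with 16 genes. On chromosome 1, 11 genes lie at chr1:149782689-149887965, and the pair H2AC25 and H2BC26 lies alone at chr1:228457364-228458558.

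RefSeq promoter sequences of GRCh38.p14 matched 63 of the 68 genes. In 11 cases an H2A and an H2B gene are transcribed away from each other with 193 to 247 bases between their starts. The 4 stretches below lie upstream of the starts and show the promoters on which the results turn. They are the stretch between H2AC25 and H2BC26, whose peaks rose most, the stretch between H2BC8 and H2AC8, whose peak fell, the promoter of the linker histone gene H1-4, whose peak fell, and that of H4C8, an H4 gene whose peak was not called. Capitals mark matches on either strand to the TATA box TATAAA, the CCAAT box, the octamer ATTTGCAT known from H2B promoters, the letters GGTCCG at the end of the H4 promoter element, and the H1 box AAACACA.
H2AC25-H2BC26 (chr1:228457874-228458102, plus strand): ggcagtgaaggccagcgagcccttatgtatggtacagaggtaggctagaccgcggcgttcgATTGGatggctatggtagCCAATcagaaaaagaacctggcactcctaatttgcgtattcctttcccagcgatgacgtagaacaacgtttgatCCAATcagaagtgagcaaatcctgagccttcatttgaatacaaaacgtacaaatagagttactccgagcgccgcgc
H2BC8-H2AC8 (chr6:26216689-26216920, plus strand): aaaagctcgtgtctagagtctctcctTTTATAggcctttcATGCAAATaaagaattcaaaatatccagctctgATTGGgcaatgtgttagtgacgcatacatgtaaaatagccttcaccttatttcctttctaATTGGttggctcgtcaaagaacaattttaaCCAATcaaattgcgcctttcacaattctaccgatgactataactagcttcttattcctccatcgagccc
H1-4 (chr6:26156079-26156328, plus strand): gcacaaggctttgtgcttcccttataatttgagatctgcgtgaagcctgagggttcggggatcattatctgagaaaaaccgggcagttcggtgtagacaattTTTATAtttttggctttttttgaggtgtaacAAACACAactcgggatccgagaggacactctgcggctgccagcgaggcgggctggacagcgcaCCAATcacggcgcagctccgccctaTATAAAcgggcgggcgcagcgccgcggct
H4C8 (chr6:26285535-26285784, minus strand): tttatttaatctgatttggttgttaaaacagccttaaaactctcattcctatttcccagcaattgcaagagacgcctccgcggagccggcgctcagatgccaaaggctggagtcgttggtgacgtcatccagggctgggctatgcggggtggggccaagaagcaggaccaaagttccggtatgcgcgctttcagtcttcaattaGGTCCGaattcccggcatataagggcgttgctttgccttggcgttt

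The families differ in these letters. Within the 250 bases before the start, CCAAT was found in 54 of the 63 member promoters, or 85.7%, against 32.0% of all 35116 promoters of that length. It was present in all matched promoters of H1, H2A, H2B and H3, and in 3 of 12 H4 promoters. The octamer was found in 14 of 18 H2B and 11 of 16 H2A promoters, against 1.63% of all promoters. GGTCCG was found in 11 of 12 H4 promoters, against 9.43% of all promoters. AAACACA was found in all 6 H1 promoters and in no promoter of the core histones, against 4.82% of all promoters. TATAAA was found in 65.1% of the member promoters and 10.7% of all promoters. The stretch between H2AC25 and H2BC26 holds 3 CCAAT matches and no match to the octamer or to TATAAA, whereas that between H2BC8 and H2AC8 holds both. A match is a description of the letters and no evidence that a factor binds there.

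Most members carried both marks. A peak of H3K4me3 touched 60 genes and a peak of H3K27ac touched 58 genes, all of which had H3K4me3 as well. The genes with H3K4me3 only were H2AC25 and H2BC26. The 8 genes with no peak of either mark were H2AC1, H2BC1, H1-6, H2BC6, H4C7, H4C14, H3C14 and H3C15. H2AC1, H2BC1 and H1-6 encode histones known from the testis, where they serve male germ cells. H4C14, H3C14 and H3C15 lie in a duplicated stretch of chromosome 1, and the 300 promoter bases of H4C14 are identical to those of H4C15, so that reads of the 2 copies cannot be told apart by that sequence. Compared position by position without gaps, the promoter windows of H2AC18 and H2AC19 matched at 70 of 300 bases and those of H3C14 and H3C15 at 87 of 300. These 2 values cannot show how alike the copies are, since the windows were not aligned and an offset between them would hide a match. An H3K4me3 peak covered the annotated start of 49 of the 63 genes with a known start, and an H3K27ac peak that of 46.

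Reads in H3K4me3 peaks numbered 9686420 to 12327122 per library and reads in H3K27ac peaks 4360660 to 5410292, with a median count over all peaks of 263 to 328 and 21 to 24. These are reads in peaks, not full depths. The member peaks took 0.256% to 0.279% of the H3K4me3 reads in peaks and 0.340% to 0.371% of the H3K27ac reads. As a check of the cell type, all 6 B-cell marker genes looked at had an H3K4me3 peak, with 55.1 to 481 CPM in DMSO, where CPM is the count scaled to the reads in peaks of a library. Peaks at 2 of 4 T-cell genes had 8.58 to 18.6 CPM, and 1 of 4 myeloid genes had a peak, at 10.7 CPM. The H3K27ac libraries DMSO replicate 2 and 150 nM replicate 2 stood apart on 5 unplaced contigs, with 71.5 and 45.9 CPM against 322 to 446 CPM in the other libraries.

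In DMSO, the H3K4me3 level of the member peaks per length was near the middle of all tested peaks and their H3K27ac level was near the top. The median was 20.6 CPM per kb for H3K4me3, at a median percentile of 54.6 among all tested peaks, and 21.2 CPM per kb for H3K27ac, at a median percentile of 92.8. Per family, the H3K4me3 peak with the highest level per length was that of H2BC4/H2AC6 for H2A and H2B, with 38.3 CPM per kb. It was H3C4/H2AC7/H2BC7 for H3, with 34.8 CPM per kb, H3C1/H4C1 for H4, with 34.7 CPM per kb, and H1-4/H2BC5 for H1, with 34.2 CPM per kb. The lowest was a peak inside H2BC12 with 3.15 CPM per kb. For H3K27ac, H3C1/H4C1 led the H3 and H4 peaks with 30.8 CPM per kb, H1-4/H2BC5 led the H1 and H2B peaks with 30.0 CPM per kb, and H2AC16/H1-5/H3C11/H4C13 led the H2A peaks with 28.2 CPM per kb. H3K4me3 member peaks were 768 to 6406 bp long, with a median of 2535 bp, and H3K27ac member peaks 263 to 11053 bp, with a median of 2859 bp.

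At 500 nM, H3K4me3 fell by small amounts at 15 member peaks, 13 of which touched an H2A or H2B gene, and rose at 3 peaks of low level. The rises were at both peaks of the pair H2AC25 and H2BC26 and at H1-1. By the quasi-likelihood test of edgeR with Benjamini-Hochberg adjustment over all tested peaks at 0.05, 18 of 39 member peaks were called, or 46.2%, against 39.4% of all tested peaks. The 3 called higher were 7.69% of the members against 20.7% of all tested peaks, and the 15 called lower were 38.5% against 18.7%. The median log2 fold change was −0.09 over the members and −0.01 over all tested peaks. The libraries of the groups did not overlap at 8 peaks that were higher and 23 that were lower at 500 nM, against 33.7% and 34.3% of all tested peaks. DESeq2 called 8 of the 39 member peaks, 2 higher and 6 lower, against 3479 of all 20402 tested peaks. The split of 3 higher and 15 lower moved to 5 and 12 with scaling by the total count in peaks and to 3 and 8 with loess offsets on abundance. Without DMSO replicate 1 it was 5 higher and 8 lower.

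**Figure D1:**
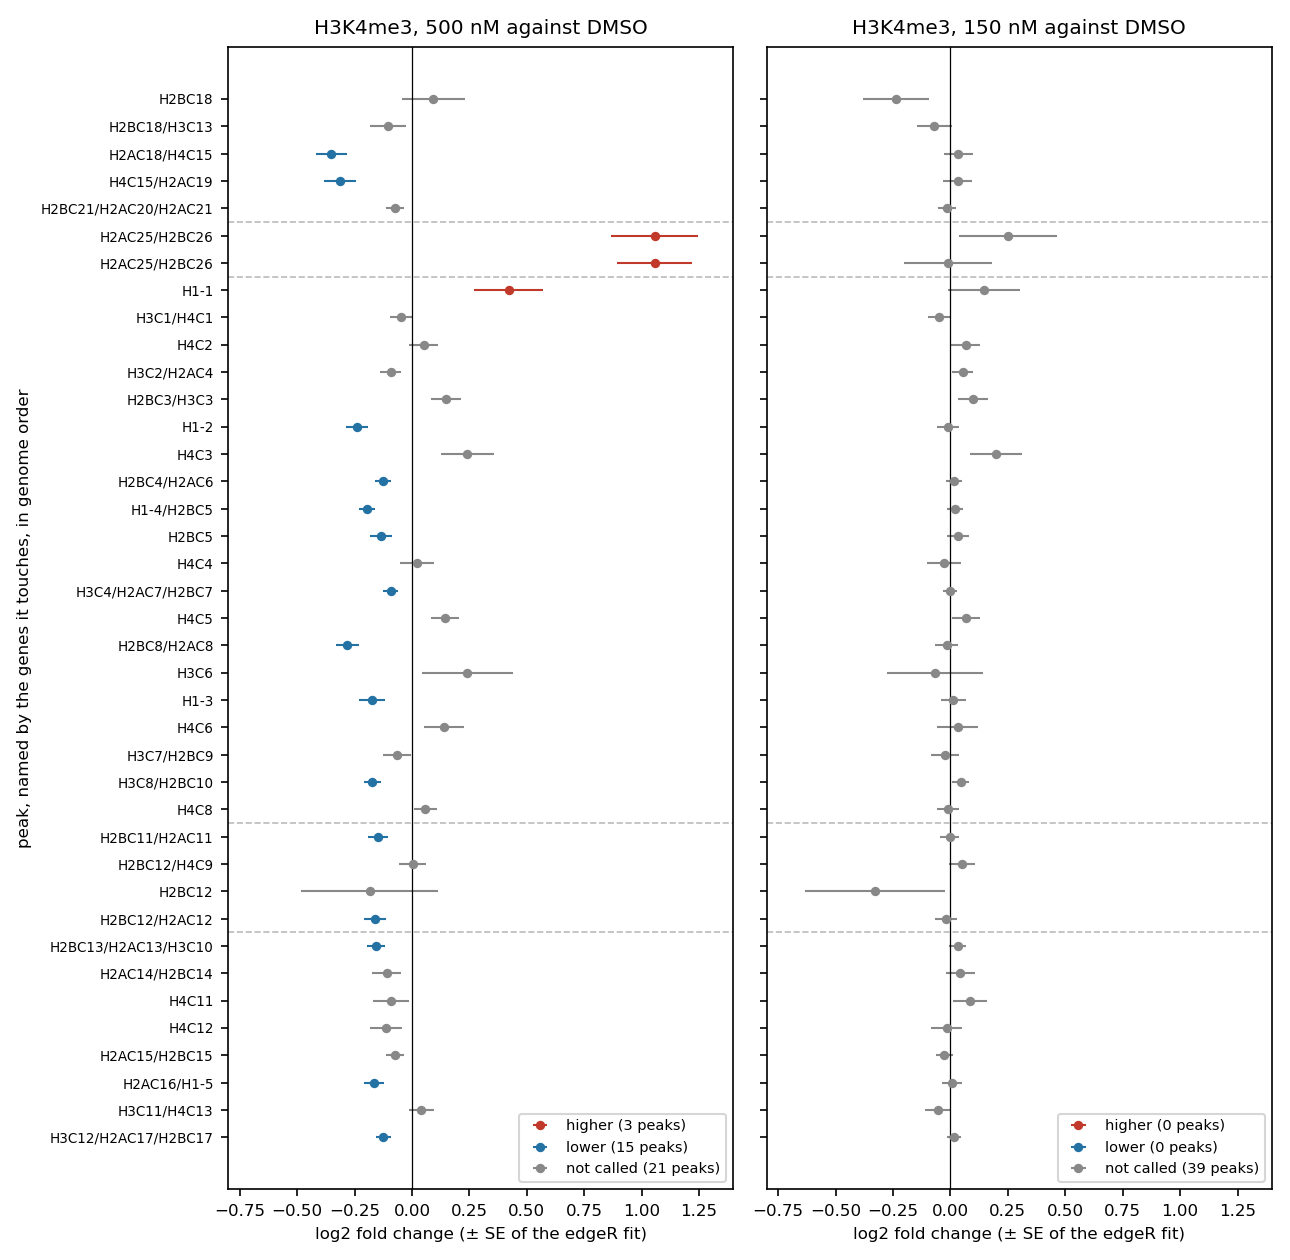
Log2 fold change of H3K4me3 (horizontal axis, bars show the SE of the edgeR fit) for the 39 member peaks in genome order (vertical axis, dashed lines between clusters), at 500 nM against DMSO on the left and 150 nM against DMSO on the right. On the left 3 peaks were called higher and 15 lower, and on the right none was called.

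The pair H2AC25 and H2BC26, which encode H2A and H2B proteins, had the largest rises among the members. The first peak, chr1:228457033-228457942, had 4.98 and 3.73 CPM with the vehicle, 6.18 and 4.28 with 150 nM and 9.35 and 8.99 with 500 nM. Both libraries at 500 nM lay above all others. The mean went from 4.36 ± 0.88 to 9.17 ± 0.26 CPM (SD, n = 2), a log2 fold change of 1.06 ± 0.19 (SE, edgeR adjusted p = 6.4e-06). The second peak, chr1:228458141-228459446, had 5.72 and 5.40 CPM with the vehicle, 5.2 and 5.86 with 150 nM and 10.8 and 12.6 with 500 nM. Here too the 500 nM libraries did not overlap any other, with a log2 fold change of 1.06 ± 0.16 (SE, edgeR adjusted p = 3.0e-07). The first peak reaches into the stretch between the starts that is printed above and covers the start of H2AC25, and the second begins just past that of H2BC26. Both rises were called under all 14 alternative settings that tested single peaks.

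H1-1, a linker histone gene, rose from a low level as well. Its peak, chr6:26017032-26017856, had 8.98 and 7.37 CPM with the vehicle, 9.94 and 8.28 with 150 nM and 10.8 and 11.3 with 500 nM. Those at 500 nM lay above the rest, and the DMSO and 150 nM libraries overlapped. The log2 fold change was 0.42 ± 0.15 (SE, edgeR adjusted p = 0.0207). This call was lost with DESeq2 (adjusted p = 0.214), with loess offsets (adjusted p = 0.197), without DMSO replicate 2 (adjusted p = 0.186) and without 500 nM replicate 2 (adjusted p = 0.0812).

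The other H1 genes with a peak fell. H1-2, the gene of one of the main somatic linker histones, had 82.7 and 85.0 CPM with the vehicle, 82.8 and 83.4 with 150 nM and 74.9 and 66.3 with 500 nM. Both libraries at 500 nM were the lowest, and the log2 fold change was −0.24 ± 0.05 (SE, edgeR adjusted p = 8.0e-05). The peak of H1-4/H2BC5, chr6:26155651-26160500, had 166 and 165 CPM with the vehicle, 165 and 171 with 150 nM and 145 and 145 with 500 nM. Its replicates were close together and the log2 fold change was −0.19 ± 0.04 (SE, edgeR adjusted p = 8.0e-06). H1-3 changed by −0.17 (adjusted p = 0.0118) and H2AC16/H1-5 by −0.17 (adjusted p = 0.00167). The calls of H1-2 and H1-4/H2BC5 were kept in all 14 alternatives. Those of H1-3 and H2AC16/H1-5 were lost with DESeq2, and that of H1-3 also with total-count scaling (adjusted p = 0.0505), without DMSO replicate 1 (adjusted p = 0.148) and without 500 nM replicate 2 (adjusted p = 0.142).

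Among H2A and H2B genes, 16 peaks touched an H2A gene, of which 2 rose and 10 fell. An H2B gene was touched by 21 peaks, of which 2 rose and 10 fell. Of all tested peaks, 20.7% rose and 18.7% fell. The largest falls of all members were at 2 peaks of the chromosome 1 cluster that overlap only the long H4C15 annotation, away from its start, and lie within 1000 bp of H2AC18 or H2AC19 without covering a start. The peak of H2AC18/H4C15, chr1:149843282-149846345, had 48.1 and 51.0 CPM with the vehicle, 51.8 and 49.4 with 150 nM and 41.9 and 34.9 with 500 nM. Libraries at 500 nM lay below the others but also apart from each other, and the log2 fold change was −0.35 ± 0.07 (SE, edgeR adjusted p = 1.81e-05). The adjoining peak of H4C15/H2AC19, chr1:149848177-149850525, had 42.9 and 42.4 CPM with the vehicle, 42.5 and 44.8 with 150 nM and 36.2 and 32.1 with 500 nM. Its log2 fold change was −0.31 ± 0.07 (SE, edgeR adjusted p = 0.000156). Both peaks lie in the duplicated stretch, and how reads that fit more than one place were treated is not given in the sources used here, so these values are uncertain. H3C13, at the edge of this stretch, shares a peak with H2BC18 that changed by −0.10 ± 0.08 (SE, edgeR adjusted p = 0.309).

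On chromosome 6, the peak of the divergent pair H2BC8/H2AC8, chr6:26215206-26220408, had 103 and 88.1 CPM with the vehicle, 99.2 and 91.2 with 150 nM and 79.7 and 78.9 with 500 nM. Again those at 500 nM were the lowest although the DMSO libraries differed widely, and the log2 fold change was −0.28 ± 0.05 (SE, edgeR adjusted p = 8.8e-06). H3C8/H2BC10 changed by −0.17 ± 0.04 (SE, edgeR adjusted p = 0.000182) and was also called in all 14 alternatives. The other called falls among H2A and H2B peaks were between −0.16 and −0.09, at H2BC12/H2AC12, H2BC13/H2AC13/H3C10, H2BC11/H2AC11, H2BC5, H2BC4/H2AC6, H3C12/H2AC17/H2BC17 and H3C4/H2AC7/H2BC7. Each of these calls was lost in 3 or more alternatives, DESeq2 among them, and 6 falls in all were called under every one of the 14. The fall of H3C4/H2AC7/H2BC7, from 211 and 201 CPM to 194 and 194 CPM, was the smallest at −0.09, and was −0.01 with loess offsets (adjusted p = 0.833). Leaving out DMSO replicate 1 ended the calls of all of these 7 peaks but H2BC4/H2AC6. That call ended without 500 nM replicate 2 (adjusted p = 0.074).

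**Figure D2:**
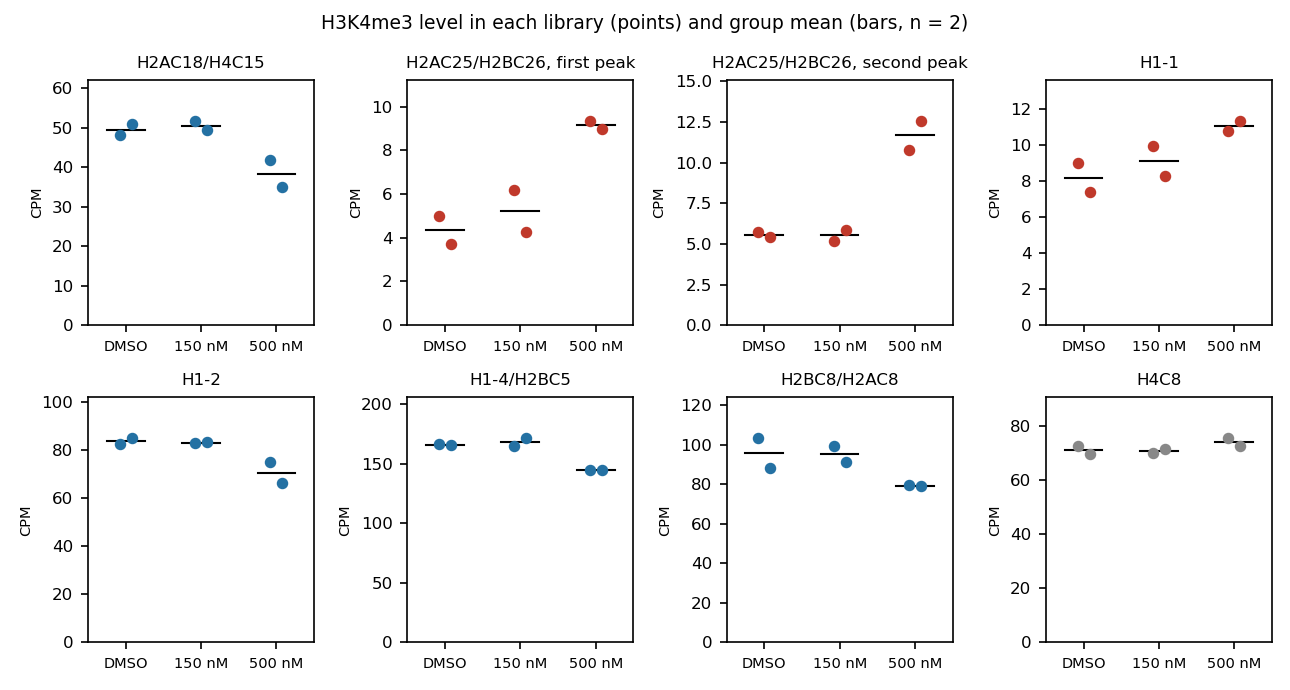
H3K4me3 level in CPM (vertical axis, from 0) of each library (points) with the group mean (bars, n = 2) in DMSO, 150 nM and 500 nM (horizontal axis), for 8 member peaks coloured by their call at 500 nM against DMSO (red higher, blue lower, grey not called). The 500 nM libraries lie apart from the other groups in the 7 called peaks, and the groups lie close together at H4C8.

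At the genes of the other core histones, H3 and H4, no peak rose, while 20.7% of all tested peaks rose and 18.7% fell. Of 11 peaks that touched an H3 gene, 4 fell, each of the 4 shared with an H2A or H2B gene. Of 13 peaks that touched an H4 gene, 2 fell, the peaks within H4C15 beside H2AC18 and H2AC19. The 8 peaks with H4 genes only had no call and a median log2 fold change of 0.05, with 6 of 8 above 0, and DESeq2 called none of them. At an unadjusted p under 0.05 there were 2 of the 8, against 47.1% of all tested peaks. H4C5, with 48.7 and 48.4 CPM with the vehicle, 50.6 and 51.1 with 150 nM and 57.2 and 49.4 with 500 nM, had the lowest p of them (edgeR adjusted p = 0.0513, log2 fold change 0.14 ± 0.06). H4C8 had 72.7 and 69.8 CPM with the vehicle, 70.1 and 71.7 with 150 nM and 75.7 and 72.7 with 500 nM, and its groups were close together. The peak of H3C1/H4C1, with the highest level per length among H4 peaks, changed by −0.05 ± 0.05 (SE, edgeR adjusted p = 0.465). The 25 peaks with an H2A or H2B gene had 2 calls higher and 13 lower and a median of −0.12. These 13 include the 2 falls within H4C15, which overlap H4C15 only and count here because H2AC18 or H2AC19 lies nearby. Classed by overlap alone, both would be peaks with H4 genes only. The absence of calls in the H4 class therefore depends on counting nearby genes. The difference between these classes was not tested. The H4 median was −0.01 without 500 nM replicate 1, and 1 H4 peak was called higher with total-count scaling, with loess offsets, with size factors by the median of ratios, with the replicate number as a block, with a mean count of at least 50, without DMSO replicate 1 and without 500 nM replicate 2. Over all settings the median of the H2A and H2B peaks lay between −0.13 and −0.09.

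Levels were summed over the peaks of a class, with the peaks within H4C15 again counted as H2A or H2B peaks. The 25 H2A or H2B peaks had 2206 and 2148 CPM with the vehicle, 2210 and 2183 with 150 nM and 2029 and 1967 with 500 nM. Sums at 500 nM were the lowest, and those at DMSO and 150 nM overlapped. The 8 H4 peaks had 311 and 295 CPM with the vehicle, 314 and 308 with 150 nM and 325 and 301 with 500 nM, and these groups overlapped. Over all 39 peaks the sum was 2771 ± 57.0 CPM with the vehicle, 2794 ± 24.9 with 150 nM and 2584 ± 74.0 with 500 nM (SD, n = 2).

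By position, the sum of the lone pair on chromosome 1 went from 10.7 and 9.14 CPM with the vehicle to 20.2 and 21.5 CPM with 500 nM, and both its peaks were called higher. In the chromosome 1 cluster of 11 genes the sum went from 261 ± 8.98 to 233 ± 12 CPM (SD, n = 2), with 2 of 5 peaks called lower and none higher. In the large chromosome 6 cluster it went from 1515 ± 34.7 to 1419 ± 46.6 CPM (SD, n = 2), with 8 of 20 peaks called lower and 1 higher. The 2 smaller chromosome 6 clusters had 2 of 4 and 3 of 8 peaks called lower, and none higher. Of all tested peaks, 18.7% were called lower and 20.7% higher. In each cluster but the lone pair, both 500 nM sums lay below those of the other groups.

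The level of a peak moved with the calls. The 15 member peaks called lower had a median of 92.8 CPM over the 6 libraries and the 3 called higher 7.59 CPM, against 43.8 CPM in the 21 not called. The H4 peaks had a median of 36.2 CPM and a median length of 1986 bp, and the H2A or H2B peaks had 78.0 CPM and 3596 bp. All tested peaks were ranked by level and cut into 5 bins of equal size. In the top bin 34.1% of all peaks were called lower and 4.83% higher, while in the bin above the bottom one 34.1% were called higher and 12.8% lower. Of the members, 10 were in the top bin and 8 of these were called lower. In the bin below it 5 of 10 were called lower, against 22.7% of all peaks there, and in the middle bin 2 of 13, against 19.4%. All 3 rises were among the 5 members of the bin above the bottom one. The part of the level in these calls was not tested, and since the counts give shares of the reads in peaks, a shift common to every peak would not be seen.

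**Figure D3:**
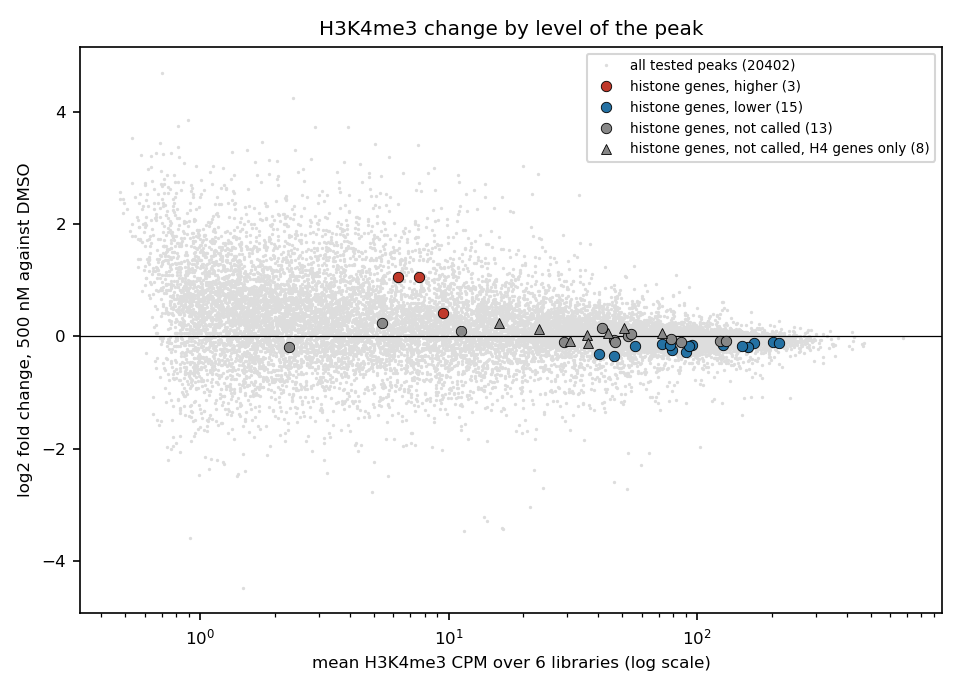
Log2 fold change of H3K4me3 at 500 nM against DMSO (vertical axis) by mean CPM over 6 libraries (horizontal axis, log scale) for 20402 tested peaks (light grey) and the 39 member peaks (large symbols, triangles for peaks with H4 genes only). The 3 members called higher lie at 6.25 to 9.45 CPM, and the 15 called lower at 40.1 to 214 CPM.

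Against 150 nM, the 500 nM libraries gave 19 calls of 39, or 48.7%, with 2 higher and 17 lower, against 39.2% of all tested peaks, 20.5% higher and 18.6% lower. The median was −0.06. The 2 rises were again the peaks of H2AC25/H2BC26, with log2 fold changes of 0.81 ± 0.18 and 1.07 ± 0.16 (SE, edgeR adjusted p = 0.000286 and 2.75e-07). H1-1 changed by 0.27 (adjusted p = 0.136) and was not called. The falls were the 15 already named together with H3C2/H2AC4, at −0.15 (adjusted p = 0.00856), and H2AC14/H2BC14, at −0.15 (adjusted p = 0.0488). Both comparisons use the same 500 nM libraries, so their calls are not independent.

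At 150 nM against DMSO, none of the 39 member peaks was called by edgeR, against 0.0% of all tested peaks, and DESeq2 called none. None of the members had an unadjusted p under 0.05, against 4.66% of all tested peaks. The member log2 fold changes lay between −0.33 and 0.25 with a median of 0.01. The first H2AC25/H2BC26 peak changed by 0.25 ± 0.21 and the second by −0.01 ± 0.19 (SE).

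H3K27ac at the histone genes showed no called change. None of the 43 member peaks was called by edgeR at 500 nM against DMSO, against 0.923% of all tested peaks, and DESeq2 called none. Only the peak of H1-1 had an unadjusted p under 0.05, against 11.5% of all tested peaks. It had 7.36 and 8.22 CPM with the vehicle, 11.3 and 10.6 with 150 nM and 13 and 10.4 with 500 nM, so that both treated groups lay above DMSO and overlapped each other. Its log2 fold change was 0.58 at an edgeR adjusted p of 0.298. The H3K27ac counts at H1-1 were 32 to 69 reads per library, which limits the precision.

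The H3K27ac fold changes were above 0 at 34 of the 43 peaks, with a median of 0.06 against −0.00 over all tested peaks. The libraries of the groups did not overlap at 18 peaks higher and 4 lower, against 22.4% and 22.2% of all tested peaks. The summed level was 3406 and 3521 CPM with the vehicle, 3541 and 3523 with 150 nM and 3778 and 3565 with 500 nM. Both 500 nM libraries were the highest, although 500 nM replicate 1 lay far above replicate 2. Without 500 nM replicate 1, 27 of 43 peaks were above 0. The widest member, H4C2/H3C2/H2AC4 over 11053 bp, had 262 and 281 CPM with the vehicle, 270 and 251 with 150 nM and 307 and 288 with 500 nM, with a log2 fold change of 0.13 (edgeR adjusted p = 0.554). H3C1/H4C1, with the highest H3K27ac level per length, changed by 0.16 (adjusted p = 0.563). In the duplicated stretch of chromosome 1, the changes were 0.01 for H2AC18/H4C15 (adjusted p = 0.987) and 0.06 for H4C15/H2AC19 (adjusted p = 0.904).

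Against 150 nM, H3K27ac at 500 nM again gave no call among the members by edgeR, against 1.27% of all tested peaks, and none by DESeq2. There was 1 member at an unadjusted p under 0.05, against 10.2% of all tested peaks. At 150 nM against DMSO there was no call by edgeR, against 0.00185% of all tested peaks, and none by DESeq2. Here too 1 member had an unadjusted p under 0.05, against 3.94% of all tested peaks. The medians were 0.04 and 0.05.

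Each H3K4me3 member peak was paired with the H3K27ac peak that overlapped it most, which gave 37 pairs with 34 H3K27ac peaks. The 2 peaks of H2AC25/H2BC26 had no partner. Of the 15 peaks at which H3K4me3 fell, the H3K27ac fold change was above 0 at 14, with a median of 0.06 and a range of −0.13 to 0.15. The exception was H1-4/H2BC5, where the H3K27ac peak with the longer overlap changed by −0.13 (adjusted p = 0.734) and the other by 0.13 (adjusted p = 0.703). None of these H3K27ac changes was called, and no test compared the 2 marks. Of all 43 H3K27ac member peaks, 34 were above 0, also with a median of 0.06. Values above 0 were thus not particular to the peaks at which H3K4me3 fell.

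**Figure D4:**
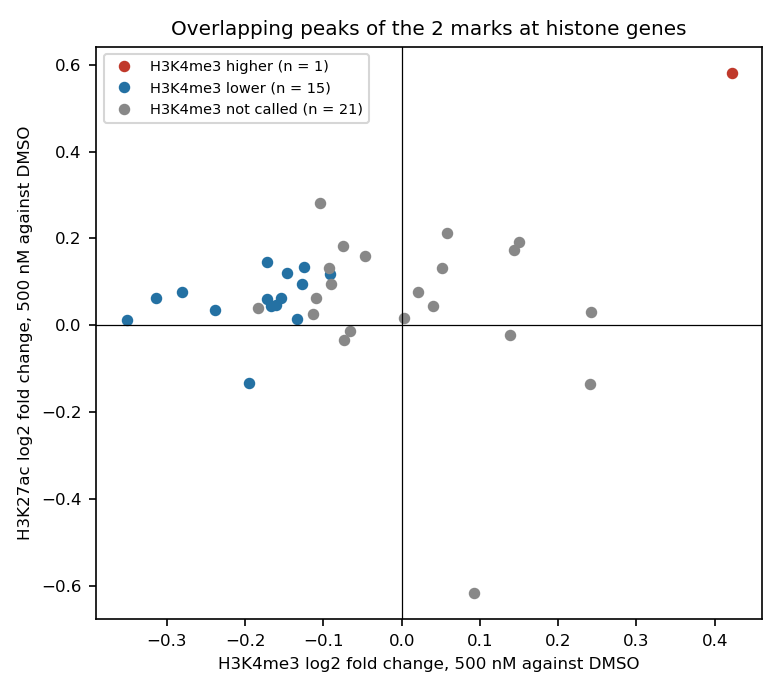
Log2 fold change at 500 nM against DMSO of H3K4me3 (horizontal axis) and of the overlapping H3K27ac peak (vertical axis) for 37 pairs of member peaks, coloured by the H3K4me3 call. Of the 15 pairs with a fall of H3K4me3, 14 lie above 0 for H3K27ac, and H1-1 is the pair with the rise. Of all 43 H3K27ac member peaks, 34 had a fold change above 0.

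Genes that act on the clustered histone genes were taken as lists. Of 20 H3K4me3 peaks at 16 genes of transcription control, 1 rose and 6 fell at 500 nM against DMSO, against 20.7% and 18.7% of all tested peaks, and DESeq2 called 1. The largest fall was at a peak of E2F1, the gene of an activator of S-phase genes, that does not cover its start and also touches NECAB3. This peak, chr20:33672323-33675128, had 122 and 130 CPM with the vehicle, 129 and 129 with 150 nM and 92.1 and 86.6 with 500 nM. Both 500 nM libraries lay far below the others, with a log2 fold change of −0.49 ± 0.04 (SE, edgeR adjusted p = 1.6e-14). The peak that covers the E2F1 start changed by 0.07 (adjusted p = 0.153). Of the 13 peaks on this list that cover the start of their gene, none rose and 3 fell. The rise was at CCNE2, a cyclin E gene, at 0.09 (adjusted p = 0.0241), and was lost with DESeq2 (adjusted p = 0.434), in the fit of 4 libraries only (adjusted p = 0.067), without DMSO replicate 1 (adjusted p = 0.663) and without 500 nM replicate 2 (adjusted p = 0.526). The CCNE2 peak also touches NDUFAF6, and the NPAT peak also touches ATM. NPAT had 224 and 215 CPM with the vehicle, 221 and 220 with 150 nM and 210 and 208 with 500 nM. Its change of −0.07 missed the threshold (edgeR adjusted p = 0.0504). CASP8AP2, which is needed for histone gene expression in S phase, changed by −0.10 (edgeR adjusted p = 0.0396). The 1 call of DESeq2 on this list was the E2F1 peak away from its start, so DESeq2 did not call the CASP8AP2 fall.

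Of 13 peaks at 11 genes of histone mRNA 3′ end processing, none rose and 6 fell, against 20.7% and 18.7% of all tested peaks. DESeq2 called 1 of these peaks, and the other gene on this list, ERI1, had no H3K4me3 peak. SLBP, the stem-loop binding protein, had 242 and 248 CPM with the vehicle, 251 and 246 with 150 nM and 226 and 221 with 500 nM. Its 500 nM libraries were the lowest, with a log2 fold change of −0.13 ± 0.03 (SE, edgeR adjusted p = 0.000425). The largest fall on the list was −0.18 at a peak of SRRT away from its start (adjusted p = 0.00138), which was lost with DESeq2 (adjusted p = 0.105) and without 500 nM replicate 1 (adjusted p = 0.0787). This SRRT peak also touches UFSP1 and ACHE. Of 13 peaks at 11 genes of histone chaperones and related factors, none rose and 4 fell, against the same shares of all tested peaks. DESeq2 called 2 of them. The largest fall was at ATRX, a chromatin remodeller that works with DAXX, with a log2 fold change of −0.31 ± 0.07 (SE, edgeR adjusted p = 0.000137). Without DMSO replicate 1, the ATRX change was −0.21 (adjusted p = 0.0544).

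Histone genes outside the clusters moved in both directions, with 2 rises and 5 falls among 14 peaks, against 20.7% and 18.7% of all tested peaks, and 3 calls by DESeq2. H2AJ, an H2A variant gene, had the largest fall, from 117 and 122 CPM to 101 and 97.4 CPM, by 0.26 on the log2 scale (edgeR adjusted p = 5.0e-07). In H3K27ac, no peak of any of these 4 lists was called at 500 nM against DMSO by edgeR, and none by DESeq2, while 11.5% of all tested peaks had an unadjusted p under 0.05. On the lists these were 2 of 32 peaks of transcription control, 2 of 15 of processing, 5 of 18 of chaperones and 2 of 20 of histone genes outside the clusters. In the same order, 18, 12, 15 and 13 of these peaks had an H3K27ac fold change above 0. The median log2 fold changes were 0.05, 0.15, 0.17 and 0.10. More peaks above 0 than below were thus not particular to the members.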

How the data were processed

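The deposited tables give raw read counts per consensus peak, in 1 table for each mark, and were not normalized by the authors. Per the file headers, reads were counted with featureCounts 2.0.1 without regard to strand, counting a read in several peaks and asking for an overlap of 0.2 of the read. The recorded command has the paired-read option although the labels give 50 bp single-end sequencing, and whether a count is a read or a fragment is therefore unsettled. The submitters' processing notes name GRCh38, Trim Galore 0.6.7, BWA 0.7.17-r1188, Picard 2.27.4, MACS2 2.2.7.1, deepTools 3.5.1 and edgeR 3.42.4, without their roles. How the consensus peaks were made is not given in the sources used here. Coordinates are as deposited with 1 added to the start.

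All 6 libraries of a mark entered one edgeR 4.0.16 fit (R 4.3.3, filterByExpr by group, TMM, glmQLFit, glmQLFTest), with Benjamini-Hochberg adjustment over all tested peaks of a comparison. SEs were derived from the F statistic. CPM used library sizes over tested peaks times the TMM factor. The fit was tested on simulated counts with changes larger than the falls reported here, so that test does not bear on changes as small as these falls. Alternatives were other scalings and filters, blocking on the replicate number, fitting 4 libraries only, DESeq2 1.42.0, an adjusted p under 0.01, overlap of a gene without the margin, leaving out each library, and for H3K27ac a term for the contig split. Peaks of list genes longer than 5000 bp were those within 1000 bp of an end of the gene.

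The 2 H3K4me3 libraries at 150 nM differed by less than sampling noise (chi-square per degree of freedom 0.923), but so did DMSO replicate 1 and 150 nM replicate 1 of different groups (0.952), and the 2 were kept as separate libraries.

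Members and lists were chosen with earlier results of these data known. Named were, per mark, the 6 largest called rises and falls at 500 nM against DMSO, the peak with the highest DMSO level per length in each family, the testis genes, the genes of the duplicated stretch, peaks called at 150 nM, genes with no peak, the largest called rise and fall of each other list, and NPAT, SLBP and CASP8AP2. The other called falls, H4C5, H4C8, H3C2/H2AC4, H2AC14/H2BC14, H4C2/H3C2/H2AC4, the H3K27ac peak of H1-1 and ERI1 were named after their values were seen. One gene of the list of histone genes outside the clusters is counted there but not reported here.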

Additional observations from a re-analysis of the deposited data

How the results depend on the processing

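No median over all member peaks and no named peak with a call changed direction under the alternatives run, while the median of the H4 peaks did so without 500 nM replicate 1 (−0.01). Among named peaks without a call, values crossed 0 at 500 nM against DMSO for H3K4me3 at H3C1/H4C1 (−0.10 to 0.0021) and at the peak inside H2BC12 (−0.51 to 0.13). They did so for H3K27ac at H2AC18/H4C15 (−0.15 to 0.16) and H2AC16/H1-5/H3C11/H4C13 (−0.04 to 0.13). Of the counts and medians of member peaks recomputed under each alternative, 183 stayed close to their value and 9 moved. For H3K4me3 at 500 nM against DMSO, the 18 calls became 11 with loess offsets and 8 with DESeq2, and the median of −0.09 became −0.058 with total-count scaling and −0.049 with loess offsets. Against 150 nM, the 19 calls became 10 with DESeq2 and the median of −0.06 became −0.029 with total-count scaling. Leaving out each library gave 13 to 18 calls against DMSO, with medians of −0.11 to −0.07, and 13 to 20 calls against 150 nM, with medians of −0.09 to −0.05. For H3K27ac it gave 0 calls and medians of 0.048 to 0.090 against DMSO, and 0 to 2 calls and medians of 0.033 to 0.083 against 150 nM, where the 2 calls arose without 150 nM replicate 1 and both highest medians without 500 nM replicate 2. At 150 nM against DMSO it gave 0 calls for both marks, with medians of 0.01 to 0.04 for H3K4me3 and 0.03 to 0.05 for H3K27ac. With the replicate block, H3K4me3 calls were 19 against DMSO and 20 against 150 nM, and H3K27ac calls stayed at 0. The labels give same-numbered libraries no more than a number in common. Correlations of replicate differences were 0.00 to 0.13. The highest was between DMSO and 150 nM in H3K27ac, where replicate 2 of both groups also stood apart on the unplaced contigs. The cause of the shifts between alternatives was not tested. For single peaks with a call, 305 values kept their side of the threshold and 45 did not. Depth differed between members, from 32 to 69 reads per library in the H3K27ac peak of H1-1 to 1139 to 1629 in that of H4C2/H3C2/H2AC4, and counts made without molecular identifiers can hold copies of one molecule.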

Other observations

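Within the spans of the clusters, 7 tested H3K4me3 peaks lay away from every member gene. At 500 nM against DMSO, 2 of these rose and none fell, against 20.7% and 18.7% of all tested peaks. The larger rise was at the histone pseudogene H2AC3P, chr6:25881934-25882483, which had 3.51 and 2.85 CPM with the vehicle, 3.94 and 4.28 with 150 nM and 8.08 and 6.03 with 500 nM. Its 500 nM libraries were the highest, with a log2 fold change of 1.15 ± 0.21 (SE, edgeR adjusted p = 1.38e-05; DESeq2 adjusted p = 0.00545). The other was beside TRIM38, a gene of the interferon response, and LINC02980, with 34.9 and 33.3 CPM with the vehicle, 31.5 and 34.5 with 150 nM and 41.6 and 40.2 with 500 nM, a log2 fold change of 0.26 ± 0.07 (SE, edgeR adjusted p = 0.00161; DESeq2 adjusted p = 0.112). The other TRIM38 peak changed by −0.03 (adjusted p = 0.726) and that at HFE, the haemochromatosis gene, by 0.03 (adjusted p = 0.851). None of the 18 H3K27ac peaks of this kind was called by edgeR at 500 nM against DMSO, against 0.923% of all tested peaks. None had an unadjusted p under 0.05 there, against 11.5% of all tested peaks. These peaks were named after their values were seen.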
